A study of Saccharomyces cerevisiae with 8 samples.

Results

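The comparison described here sets budding yeast (Saccharomyces cerevisiae) deleted for ARD1 against wild type (wt), and it was made from the 2 arrays titled as ard1 deletes and the 2 arrays titled wt, out of 8 arrays in all. The other 4 arrays are 2 of a dot1 deletion and 2 of a swi4 deletion, and they enter below as further strains against which ard1 was set. The labels give every group only by genotype and call the arrays of a group biological replicates. All cultures were grown in the rich medium YPD at 30 C, without a further treatment, and harvested in mid-log phase at an OD600 of 0.7. The labels name neither the parent strain nor its mating type, and they do not say whether the 2 ard1 cultures came from 1 deletion clone. The features compared were 5449 genes with a symbol, of 5814 probe sets on the Affymetrix yeast array, after control and reporter probe sets had been left out.

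NatA, whose catalytic subunit is Ard1, sits at the ribosome and acetylates the first residue of many nascent proteins once the initiator methionine has been removed. Nat1 anchors it to the ribosome, and Nat5 is a further subunit. Yeast without NatA is known for slow growth, heat sensitivity and loss of silencing at the silent mating cassettes and near telomeres. The silencing proteins Orc1 and Sir3 are among the substrates of NatA. An array measures only the transcripts of such cells, not the acetylation state of any protein.

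The 2 ard1 arrays were close to each other and the 2 wt arrays less so. The SD over genes of the difference between replicates, on the log2 scale, was 0.172 in ard1 and 0.325 in wt. It was 0.298 in dot1, near that of wt, and 0.144 in swi4. The median intensity was 631.7 and 638.8 on the ard1 arrays, against 625.4 and 712.6 on the wt arrays (replicates 1 and 2). Wt replicate 2 therefore stood apart from the other arrays before any gene was compared, and counts are given without it where it moved them by over 1.5 times. Levels below are log2 intensities per array, given for replicate 1 and then replicate 2. Changes are ard1 minus wt on the log2 scale and are followed, after ±, by the SE that limma estimated, with 2 arrays in each group. The probes of each gene respond differently, so a level says nothing about one gene relative to another.

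ARD1 itself read 5.57 and 5.22 in ard1, against 10.41 and 10.83 in wt. It was 10.50 and 10.61 in dot1 and 10.56 and 10.75 in swi4, so it was low on the ard1 arrays alone, and the labels hold. The signal was 37.5-fold lower in ard1 than in wt (−5.23 ± 0.18, adjusted p = 0.000129). The genes on either side of ARD1 are VPS29, a subunit of the retromer sorting complex, and SPO13, a meiotic regulator. VPS29 changed by 0.02 ± 0.15 and SPO13 by −0.26 ± 0.13, and neither passed the test (adjusted p = 0.952 and 0.224).

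Among the other N-terminal acetyltransferase genes, NAT1, the ribosome anchor of NatA, read 10.76 and 10.77 in ard1, against 11.21 and 11.44 in wt. It fell by 0.56 ± 0.12 (adjusted p = 0.0219). NAT3, the catalytic subunit of NatB, read 9.0 and 9.12 in ard1, against 8.66 and 8.55 in wt, and rose by 0.45 ± 0.11 (adjusted p = 0.0308). Both calls were lost without ard1 replicate 1, ard1 replicate 2 or wt replicate 2. In these 3 fits, in that order, the change was −0.56, −0.56 and −0.45 for NAT1 and 0.51, 0.39 and 0.39 for NAT3. Against dot1 the difference was −0.29 for NAT1 and 0.09 for NAT3, and neither was called. NAT5 changed by 0.04 ± 0.13, and MAK3, the catalytic subunit of NatC, by −0.17 ± 0.14. Its partners MAK10 and MAK31 gave 0.30 and 0.10. MDM20, the partner of NAT3, gave 0.13 and NAT4, which acts on histone tails, gave −0.08, none of these 6 passing the test.

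Against wt, 341 genes were called higher in ard1 and 665 lower, at a limma adjusted p under 0.05. That is 6.26% and 12.2% of the genes tested, and counts of a gene group against wt as reported are to be read against these shares. For counts against dot1 the shares of all genes are 5.67% higher and 8.44% lower, and against swi4 6.20% and 9.07%. A count under another setting, or without 1 array, is to be read against the count of all genes in that same fit. The median change of all genes was −0.07. By at least 2-fold, 71 genes rose (1.30%) and 103 fell (1.89%). The split between directions moved with the scaling of the arrays: median centring gave 511 higher and 508 lower, and quantile normalization 555 and 562. Of the genes called, 332 of the higher and 458 of the lower were also called after both scalings. Leaving out an ard1 array lowered the counts most, to 88 higher and 197 lower without replicate 1 and 77 and 128 without replicate 2. They were 256 and 729 without wt replicate 1 and 464 and 490 without wt replicate 2. In all 4 of these fits, 67 of the genes were called higher and 108 lower. Below, a call lost without either ard1 array was lost in each of the fits that leave out 1 of them. A lost call concerns the adjusted p and does not tell whether the size of the change moved. Without ard1 replicates 1 and 2, the cyclin gene CLB2 gave −1.07 and −1.11, against −1.09 as reported. The cell fusion gene FUS1 gave −1.76 and −1.32, against −1.54. Each array measured a whole culture, so fewer cells carrying a transcript and less of it per cell cannot be told apart.

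**Figure D1:**
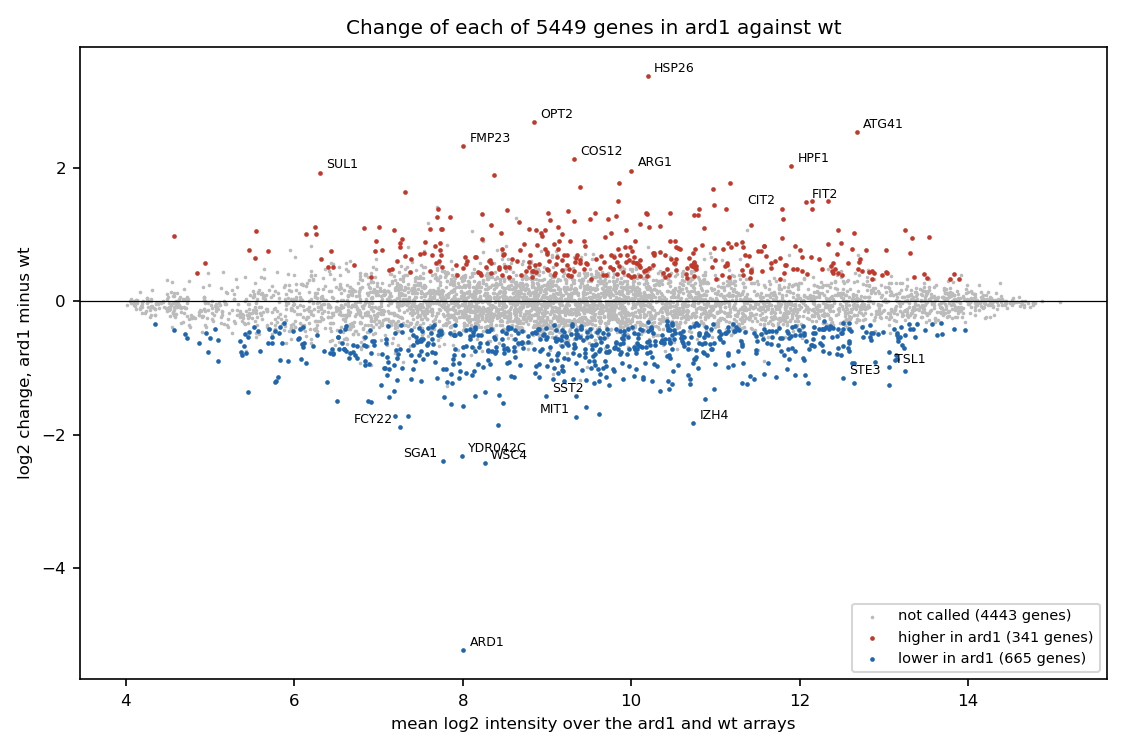
Log2 change in ard1 against wt (vertical axis) for each of the 5449 genes, over the mean log2 intensity of the ard1 and wt arrays (horizontal axis). Red points are the 341 genes called higher in ard1, blue points the 665 called lower and grey points the others. ARD1 lies alone at −5.23, and called genes occur over the whole intensity range.

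The largest rise was that of HSP26, the small heat shock protein that holds unfolded proteins in soluble form. It read 11.88 and 11.89 in ard1, against 8.75 and 8.26 in wt, and was 10.4-fold higher (3.38 ± 0.20, adjusted p = 0.000997). The dot1 arrays read 11.87 and 11.67 and the swi4 arrays 12.52 and 12.11. Ard1 thus differed from wt in HSP26 but not by a called amount from dot1 (0.11) or swi4 (−0.43). SSA4, the stress-inducible Hsp70, behaved in the same manner, at 12.06 and 12.06 in ard1 against 10.46 and 10.10 in wt (1.78 ± 0.15), with differences of −0.31 from dot1 and −0.22 from swi4.

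ATG41, a gene needed for autophagosome formation, read 13.87 and 14.02 in ard1, against 11.47 and 11.35 in wt. It was 5.79-fold higher (2.53 ± 0.19, adjusted p = 0.00153), and it was also called higher than in dot1 (2.19) and in swi4 (1.79). HPF1, a mannoprotein of the cell wall, read 12.93 and 12.89 in ard1, against 10.87 and 10.92 in wt, and was 4.04-fold higher (2.02 ± 0.10, adjusted p = 0.00058). The dot1 arrays read 11.72 and 11.54 and the swi4 arrays 10.52 and 10.38, so both ard1 arrays lay above the arrays of all the other strains. FMP23, a mitochondrial protein gene, read 9.25 and 9.08 in ard1, against 7.03 and 6.65 in wt (2.33 ± 0.15). It was 1.33 above dot1 and 1.30 above swi4. APJ1, an Hsp40 co-chaperone, read 10.26 and 10.25 in ard1, against 8.78 and 8.29 in wt (1.72 ± 0.16), and it was 1.54 above dot1 and 1.27 above swi4.

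OPT2, of the oligopeptide transporter family, read 10.08 and 10.28 in ard1, against 7.71 and 7.29 in wt, and was 6.42-fold higher (2.68 ± 0.18). Its dot1 arrays, at 10.18 and 9.80, lay beside those of ard1, while the swi4 arrays, at 8.78 and 8.77, lay below them. The other genes among the 15 largest rises were COS12 (2.13), ARG1 (1.96), SUL1 (1.93), SEO1 (1.90), TIS11 (1.78), RTS3 (1.68), YOR338W (1.64) and HIS4 (1.51). Of these 15 genes, 8 were also called higher than in dot1, where 5.67% of all genes were, and 7 higher than in swi4, where 6.20% were, comparisons that share the ard1 arrays with the one against wt. The calls of 13 of the 15 against wt held without any 1 of the 4 arrays. SEO1, a putative permease of the allantoate family, lost its call without ard1 replicate 1 (adjusted p = 0.0654), and YOR338W, a gene of unknown role, without ard1 replicate 1 (0.0721) or replicate 2 (0.104).

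After ARD1, the largest fall was that of WSC4, which encodes a membrane sensor of the WSC family that responds to cell wall stress. It read 7.05 and 7.05 in ard1, against 9.23 and 9.52 in dot1 cells, 8.39 and 8.45 in swi4 cells and 9.49 and 9.45 in wt. The fall was 5.34-fold against wt (−2.42 ± 0.11, adjusted p = 0.000503), and the difference was −2.32 from dot1 and −1.37 from swi4, both called. MIT1, a transcription factor of pseudohyphal growth, read 8.46 and 8.49 in ard1, against 10.16 and 10.27 in wt (−1.73 ± 0.12). The ard1 arrays of MIT1 lay below those of dot1 (−1.49) and swi4 (−0.89) as well.

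FCY22 and FCY21, relatives of the purine and cytosine permease gene FCY2, both fell. FCY22 read 6.41 and 6.20 in ard1, against 8.30 and 8.10 in wt (−1.89 ± 0.16). FCY21 read 8.74 and 8.59 in ard1, against 10.29 and 10.12 in dot1 cells, 10.46 and 10.63 in swi4 cells and 10.34 and 10.17 in wt (−1.59 ± 0.12 against wt). FCY2 itself moved the opposite way, at 13.26 and 13.23 in ard1 against 12.71 and 12.93 in wt (0.43 ± 0.11, adjusted p = 0.0364). That rise was lost without wt replicate 1 or either ard1 array (adjusted p between 0.0839 and 0.167).

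For 5 of the 15 largest falls, YDR042C, YMR230W-A, YAL037C-A, CIN5 and FHN1, ard1 was called lower than neither dot1 nor swi4. YDR042C, of unknown role, read 7.12 and 6.54 in ard1, 7.62 and 7.16 in dot1 and 7.16 and 7.23 in swi4, against 9.16 and 9.12 in wt (−2.32 ± 0.22 for ard1 minus wt). YMR230W-A read 7.52 and 7.46 in ard1, against 9.36 and 9.32 in wt (−1.86 ± 0.10). Its level was 7.61 and 7.48 in dot1 and 6.81 and 7.01 in swi4, and ard1 was called 0.57 higher than swi4. YAL037C-A read 6.52 and 6.16 in ard1, 6.63 and 6.65 in dot1 and 6.51 and 6.66 in swi4, against 8.21 and 7.92 in wt (−1.72 ± 0.15). These 3 are open reading frames without a gene name, and the wt arrays were the ones that stood apart. Of the 15 largest falls, 9 genes were also called lower than in dot1, where 8.44% of all genes were. Against swi4 8 of the 15 were called lower, where 9.07% of all genes were. ARD1, the deleted gene, is in both of these counts and in the count of held calls below. The 15 were picked by the same ard1 arrays, so an excess over these shares follows in part from that choice. The others of the 15 were SGA1 (−2.40), a glucoamylase of sporulating cells, CIN5 (−1.72), a transcription factor of the AP-1 family, FHN1 (−1.69), a relative of NCE102, and RPI1 (−1.52), a transcription factor, with IZH4 (−1.82), FRE7 (−1.57) and FUS1 (−1.54), which are described with their groups. The calls of 9 of the 15 against wt held without any 1 array. Those of SGA1, IZH4, CIN5, FHN1, FRE7 and FUS1 were lost without ard1 replicate 2 (adjusted p between 0.0511 and 0.125) and, except for SGA1 and IZH4, without ard1 replicate 1 (between 0.0504 and 0.0767). That of FUS1 was also lost without wt replicate 2 (0.0557).

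**Figure D2:**
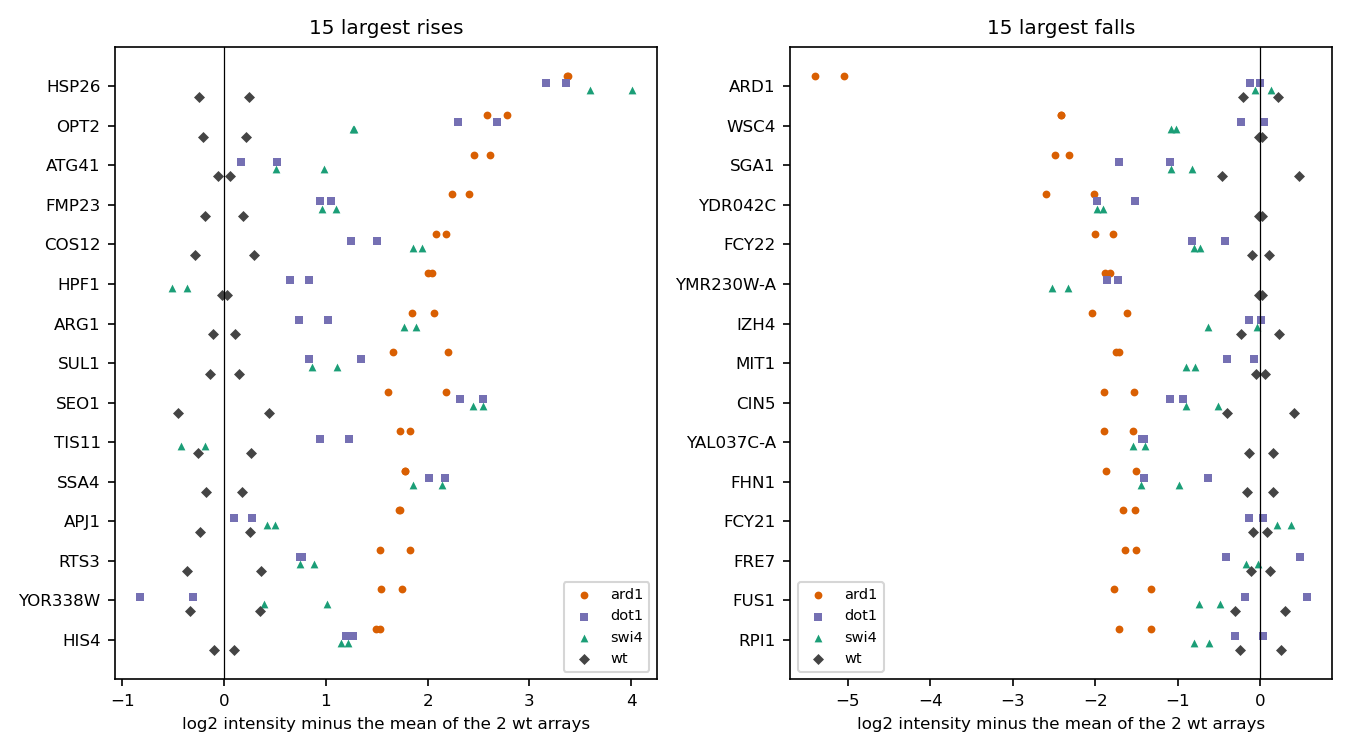
Log2 intensity minus the mean of the 2 wt arrays (horizontal axis) for the 15 genes with the largest rise (left) and the 15 with the largest fall (right) in ard1, 1 point per array of each strain. Points of ard1 are orange circles, of dot1 purple squares, of swi4 green triangles and of wt black diamonds. For HSP26, SSA4 and YDR042C the dot1 and swi4 points lie beside those of ard1, while for ATG41, WSC4 and FCY21 they lie nearer to wt.

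Among amino acid synthesis genes more rose than fell in ard1 against wt. Of 75 measured genes in 6 lists of amino acid pathways, 27 rose and 4 fell, with a median change of 0.26. In arginine synthesis 5 of 8 rose and none fell, with a median of 0.77. ARG1, which makes argininosuccinate, read 11.08 and 10.87 in ard1, against 9.13 and 8.91 in wt, and was 3.88-fold higher (1.96 ± 0.14). ARG4, which splits argininosuccinate into arginine, read 12.47 and 12.38 in ard1, against 11.28 and 11.11 in wt (1.23 ± 0.10). ARG3, the ornithine transcarbamylase, rose by 1.06 ± 0.11. These 3 genes were each called higher than in dot1 (1.08, 0.42 and 0.69), but only ARG4 was called higher than in swi4 (0.51), where ARG1 read 10.91 and 10.79.

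Histidine synthesis had 5 of 7 genes called higher, with a median of 0.90. HIS4, which catalyses several steps of that pathway, read 13.07 and 13.11 in ard1, against 11.68 and 11.48 in wt (1.51 ± 0.10). The dot1 and swi4 arrays of HIS4 lay between 12.73 and 12.85, and the differences of 0.27 and 0.32 were not called. HIS3 rose by 1.15 ± 0.10 and HIS5 by 1.13 ± 0.10.

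In lysine synthesis 4 of 9 genes rose and 1 fell. The homocitrate synthase genes LYS20 and LYS21, which commit 2-oxoglutarate to the pathway, rose by 0.79 ± 0.11 and 0.82 ± 0.10, LYS12 rose by 0.82 ± 0.10, and LYS4 fell by 0.38 ± 0.09. Of 26 genes for glutamate, proline, serine, glycine and threonine 9 rose and 1 fell. GCV1, of the glycine cleavage complex, read 11.07 and 11.17 in ard1, against 9.65 and 9.92 in wt (1.33 ± 0.11), and GCV3 rose by 1.07 ± 0.13. GLN1, the glutamine synthetase, rose by 0.95 ± 0.09 and GDH1, the main glutamate dehydrogenase, by 0.77 ± 0.09. GLT1, the glutamate synthase, was the member that fell, at 11.56 and 11.60 in ard1 against 12.33 and 12.31 in wt (−0.74 ± 0.08). BAT2, the cytosolic branched-chain aminotransferase, read 12.84 and 12.97 in ard1, against 11.33 and 11.47 in wt (1.5 ± 0.12), whereas its mitochondrial partner BAT1 fell by 0.34 ± 0.08.

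Over the 6 amino acid lists, 16 of the 75 genes were called higher in ard1 than in dot1 and 8 higher than in swi4. The median difference was 0.19 from dot1 and 0.13 from swi4. Without ard1 replicates 1 and 2 the rises against wt numbered 18 and 15, and the falls 1 and 1. The falls numbered 2 without wt replicate 1 and 2 after median centring. LYS20 lost its call without ard1 replicate 2 (adjusted p = 0.0554), LYS4 without either ard1 array or wt replicate 1 (0.0566 to 0.164) and BAT1 without any 1 array (0.0562 to 0.193).

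Of 10 genes that take up and reduce sulfate 8 rose, with a median of 0.63. The sulfate permease gene SUL1 read 7.54 and 7.0 in ard1, against 5.49 and 5.20 in wt, and was 3.81-fold higher (1.93 ± 0.24). MET14, the kinase of activated sulfate, read 10.20 and 10.14 in ard1, against 9.11 and 9.29 in wt (0.97 ± 0.10). MET16, which reduces phosphoadenylyl sulfate, rose by 0.79 ± 0.13, and MET1 and MET8, which make the sirohaem of sulfite reductase, rose by 1.28 ± 0.11 and 0.68 ± 0.12. In the list of methionine, S-adenosylmethionine and cysteine genes 6 of 21 rose and 1 fell. Among these STR2, an enzyme that converts cysteine towards cystathionine, rose by 0.90 ± 0.10. SAM2, an S-adenosylmethionine synthetase, fell by 0.63 ± 0.09.

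Few sulfur genes were called different between ard1 and the other deletions. MET14 read 10.12 and 10.23 in dot1 and 10.20 and 10.12 in swi4, so that ard1 differed from swi4 by 0.01. Of the 10 sulfate genes 2 were called higher than in dot1, and 2 higher and 1 lower than in swi4, with median differences of 0.08 and 0.02. Against wt, 3 of the 10 were called without ard1 replicate 1 and 5 without replicate 2, while 10 were called without wt replicate 1. MET16 and MET8 lost their calls without ard1 replicate 1 (adjusted p = 0.0686 and 0.077) and SAM2 without ard1 replicate 2 (0.0578). Of the 21 methionine genes, 1 was called higher without either ard1 array.

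Of 20 amino acid permease genes 2 rose and 1 fell. DIP5, the glutamate and aspartate permease, rose by 0.88 ± 0.15, and MUP3, a methionine permease, fell by 0.86 ± 0.12. Of 19 genes under nitrogen catabolite repression, the block on the use of poor nitrogen sources, 4 rose and 1 fell. MEP1, an ammonium permease, rose by 1.5 ± 0.24, and CAR1, the arginase, by 0.78 ± 0.17. UGA4, a permease for 4-aminobutyrate, read 7.27 and 7.25 in ard1, against 8.60 and 8.39 in wt (−1.23 ± 0.16). It was also called lower than in dot1 (−1.18) and in swi4 (−1.42). Without ard1 replicate 1 or replicate 2, none of the rises in these 2 lists was called (adjusted p for these 3 genes between 0.0534 and 0.124). CAR1 was also lost without wt replicate 2 (0.056). Without wt replicate 1, 4 permease genes were higher and 2 lower, and 2 genes under nitrogen catabolite repression were lower. MUP3 and UGA4 lost their calls without ard1 replicate 2 (0.0582 and 0.0506).

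Many genes of high-affinity iron uptake rose against wt, and several were also called higher in ard1 than in dot1 and swi4. Of 14 genes for siderophore uptake and ferric reduction 7 rose and 1 fell, with a median of 0.58. FIT2, a wall mannoprotein that holds iron-bearing siderophores, read 12.80 and 12.83 in ard1, against 11.40 and 11.26 in wt (1.49 ± 0.11, adjusted p = 0.00153). It was 11.25 and 11.17 in dot1 and 10.15 and 10.41 in swi4. ARN1, a siderophore transporter, read 11.57 and 11.43 in ard1, against 10.22 and 10.02 in wt (1.38 ± 0.11), and its dot1 and swi4 arrays lay between 10.18 and 10.27. FIT3, a relative of FIT2, rose by 1.07 ± 0.12 and SIT1, the ferrioxamine transporter, by 0.83 ± 0.11. In this list 6 genes were called higher than in dot1 and 9 higher than in swi4.

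FRE7, a reductase gene of this list, fell, at 7.15 and 7.28 in ard1 against 8.91 and 8.68 in wt (−1.57 ± 0.27), and so did GRX4, a glutaredoxin that carries iron-sulfur clusters and inhibits the iron regulator Aft1. GRX4 read 9.41 and 9.45 in ard1, against 10.25 and 10.47 in wt (−0.92 ± 0.11, adjusted p = 0.00386). It was called lower than in dot1 (−0.77) and in swi4 (−0.84). AFT1 and AFT2, the activators of these uptake genes, gave 0.43 and 0.45 without passing the test.

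Of 24 other genes of iron transport, sparing and storage 6 rose and 5 fell. The reductive uptake pair of the ferroxidase FET3 and its permease FTR1 rose by 0.73 ± 0.09 and 0.82 ± 0.15. TIS11, which marks messages of iron-using proteins for decay, read 10.69 and 10.79 in ard1, against 9.22 and 8.70 in wt (1.78 ± 0.19). Its dot1 arrays lay between those of ard1 and wt at 9.90 and 10.19, a difference of 0.70 that was not called, and its swi4 arrays read 8.54 and 8.77. ISU1, the scaffold for iron-sulfur clusters, rose by 0.71 ± 0.14, while the vacuolar iron exporter SMF3 fell by 0.47 ± 0.08 and the metal transporter COT1 by 0.81 ± 0.13. The rises of the siderophore list numbered 4 without either ard1 array, and those of the other iron genes 2. FRE7, FTR1, ISU1 and SMF3 lost their calls without either ard1 array (adjusted p between 0.0561 and 0.111) and COT1 without replicate 2 (0.0735). The falls of the second list numbered 2 and 1 without ard1 replicates 1 and 2.

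Among zinc genes more fell than rose. In the zinc regulon, the genes switched on by Zap1 when zinc is scarce, 7 of 13 fell and 1 rose, with a median of −0.49. ZRT1, the high-affinity zinc permease, read 12.17 and 11.91 in ard1, against 13.14 and 13.38 in wt (−1.22 ± 0.13). ZPS1, a secreted protein of low-zinc cells, fell by 1.24 ± 0.15, and IZH4, a membrane protein gene, read 10.03 and 9.61 in ard1, against 11.42 and 11.87 in wt (−1.82 ± 0.25). The single rise was ATG41. Against the mutants the pattern was mixed, since ZPS1 differed by −0.01 from dot1 and ZRT1 by 0.11 from swi4, while IZH4 was called lower than in both (−1.76 and −1.49). ZAP1 itself changed by −0.07. The falls numbered 4 without ard1 replicate 1 and 2 without ard1 replicate 2, where IZH4 had an adjusted p of 0.0512.

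Some chaperone genes rose and none fell. Over the lists of small heat shock proteins, Hsp70, Hsp40 and Hsp90 partners and chaperonins 10 of 41 were called higher, with a median of 0.25. Beside HSP26, SSA4 and APJ1, HSP78, the mitochondrial disaggregase, read 11.01 and 10.95 in ard1, against 10.19 on both wt arrays (0.79 ± 0.13). The Hsp90 partners AHA1 and CPR6 rose by 0.69 ± 0.09 and 0.66 ± 0.08. The mitochondrial chaperonin pair HSP60 and HSP10 rose by 0.34 ± 0.08 and 0.44 ± 0.10. Of the 41, 2 were called higher than in dot1, and 1 higher and 2 lower than in swi4. Among the 2 called lower was SSE2, a nucleotide exchange factor of Hsp70, which had risen by 0.58 ± 0.10 against wt and was 0.64 below swi4. Without either ard1 array 5 of the 41 were called against wt. HSP78, HSP60, HSP10 and SSE2 lost their calls without either array of ard1 (adjusted p between 0.0711 and 0.198), HSP60 also without wt replicate 2 (0.0736) and HSP10 without wt replicate 1 (0.073).

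The proteasome genes did not share that direction. Of 33 subunit genes none rose and 1, PRE4, fell by 0.33 ± 0.08. No member had a positive change on the scaling as deposited (median −0.19), on which 3197 of all 5449 genes had a negative change. PRE4 was not called after median centring, in which 0 of the 33 passed, and was lost without any 1 array (adjusted p between 0.0502 and 0.2). Without wt replicate 1, 6 other subunit genes were called lower. RPN4, the activator of the proteasome genes, read 11.06 and 11.31 in ard1, against 10.22 and 10.88 in wt, a change of 0.64 ± 0.24 that did not pass (adjusted p = 0.119). Of 11 genes for methionine aminopeptidases and the ligases that read N-terminal degrons, CUE1, which recruits a ubiquitin-conjugating enzyme to the endoplasmic reticulum, rose by 0.42 ± 0.11, and UBR2, the ligase that ubiquitinates Rpn4, fell by 0.57 ± 0.10. UBR2 lost its call without either ard1 array (0.0743 and 0.107) and CUE1 without any 1 array (0.0702 to 0.239), and without wt replicate 2, 2 of the 11 were higher.

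**Figure D3:**
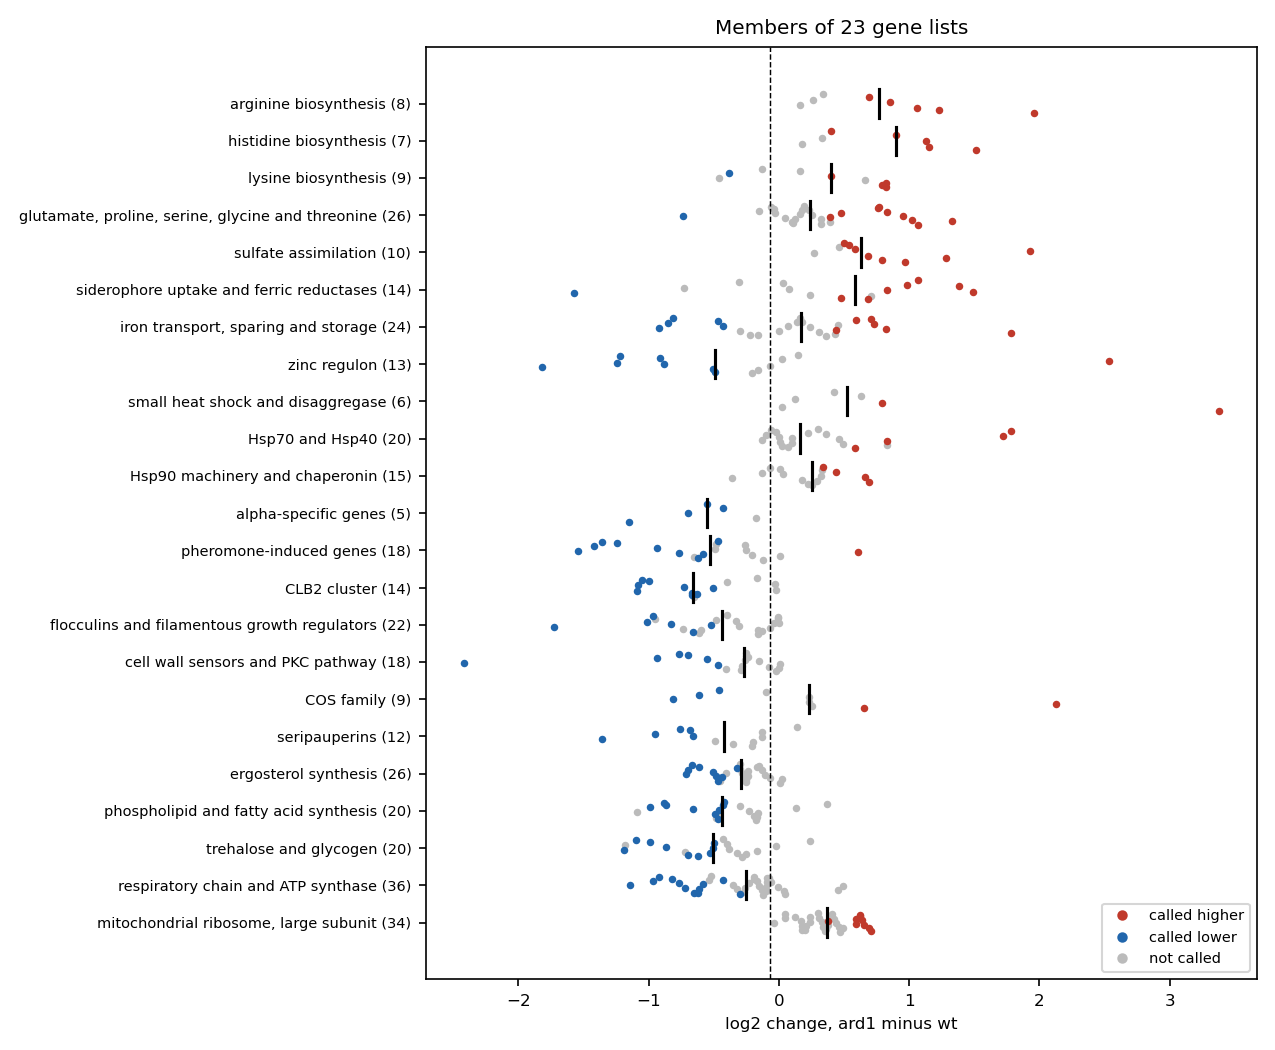
Log2 change in ard1 against wt (horizontal axis) for the measured members of 23 gene lists, 1 row per list with its number of genes in brackets. Red points were called higher, blue points lower and grey points neither, the black bar is the median of the list and the dashed line the median of all genes at −0.07. Arginine, histidine, sulfate and siderophore genes lie mostly to the right, and CLB2 cluster, zinc, mating and storage carbohydrate genes mostly to the left.

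Several transcripts of the mating pathway were lower in ard1. From receptor to target, the a-factor receptor gene STE3 read 12.03 and 11.85 in ard1, against 13.06 and 13.12 in wt (−1.15 ± 0.10). It was also called lower than in dot1 (−1.11) and in swi4 (−0.75). STE4, the G protein beta subunit that carries the signal, fell by 0.62 ± 0.14 and FUS3, the MAP kinase of the pathway, by 0.57 ± 0.10. FAR1, which halts the cell cycle in response to pheromone, read 9.11 and 8.94 in ard1, against 9.96 and 10.08 in wt (−1.0 ± 0.12). SST2, the GTPase activator that damps the signal, read 8.25 and 8.31 in ard1, against 9.52 and 9.88 in wt (−1.42 ± 0.18). Of 20 signalling genes 4 fell and none rose, beside 12.2% lower among all genes.

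Of 18 pheromone-induced genes 9 fell and 1 rose, at a median of −0.53. FIG1, a membrane protein of mating cells, read 4.75 and 4.79 in ard1, against 6.20 and 6.06 in wt (−1.36 ± 0.11). FUS1, which acts in cell fusion, read 7.30 and 6.86 in ard1, against 8.32 and 8.93 in wt (−1.54 ± 0.31). AGA1, the anchor subunit of the agglutinin of a cells, fell by 1.24 ± 0.19, and PRM10 by 0.94 ± 0.11. PRM5, which is also a target of the cell wall pathway, was the one that rose (0.61 ± 0.12). Against dot1 10 of the 18 were lower and none higher. Against swi4 5 were lower, at a median difference of −0.10.

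The alpha-specific list had 4 of 5 genes lower in ard1 than in wt, 4 lower than in dot1 and 4 lower than in swi4. Beside STE3 these were SAG1, the alpha agglutinin (−0.70 ± 0.12), and MF(ALPHA)1 (−0.55 ± 0.09) and MF(ALPHA)2 (−0.43 ± 0.09), which both encode alpha-factor. Of 7 a-specific genes limma called none in either direction, with 2 at an unadjusted p under 0.05, and their median was −0.19. STE2, the alpha-factor receptor of a cells, read 6.95 and 6.67 in ard1, against 7.88 and 7.28 in wt (−0.77), groups that did not overlap, as for 35.6% of all genes in that direction, but did not pass the test. MFA1, an a-factor gene, read 7.0 and 6.81 in ard1, against 6.99 and 6.86 in wt. On the wt arrays STE3, SAG1, MF(ALPHA)1 and MF(ALPHA)2 read 13.06 to 14.18, and STE2 and MFA1 6.86 to 7.88. That is the pattern of alpha cells, as far as levels of different genes can be compared. Among 24 genes of meiosis and sporulation 4 fell, beside 12.2% lower among all genes. These 4 were dim, with wt means of 5.65 to 6.32, and the 25th percentile of gene means over the arrays was 7.87. Without the dimmest 25% of genes, which leaves such genes untested, none of the 24 was called. Among the 4 was IME1, the inducer of meiosis, which fell by 0.56 ± 0.10. IME2, NDT80, SPS4 and HOP1, which act later, gave −0.21, −0.45, −0.08 and −0.40 and were not called.

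Without ard1 replicate 2 the falls numbered 3 of 18 in the pheromone-induced list and 1 of 5 in the alpha-specific list, and without ard1 replicate 1 7 and 1. None of the 24 meiotic genes was called without either ard1 array. The pheromone signalling falls numbered 2 to 6 without 1 array, and 1 rise was called there without wt replicate 2. FUS1, STE4 and MF(ALPHA)2 lost their calls without either ard1 array or wt replicate 2 (adjusted p between 0.051 and 0.161), and SAG1, MF(ALPHA)1, PRM5 and IME1 without either ard1 array (0.0668 to 0.103). AGA1 and FUS3 were lost without ard1 replicate 2 (0.0542 and 0.105). In the a-specific list 1 fall was called when wt replicate 2 was left out.

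Most genes of the mitotic CLB2 cluster were lower in ard1 than in wt. These are the genes that Fkh2 and Ndd1 switch on before mitosis, and 9 of 14 fell and none rose, with a median of −0.66. The B-type cyclin genes CLB1 and CLB2 read 9.09 and 9.23, and 7.29 and 7.33, in ard1, against 9.99 and 10.34, and 8.16 and 8.65, in wt (−1.0 ± 0.16 and −1.09 ± 0.23). SWI5, the activator of genes at the exit from mitosis, fell by 1.05 ± 0.19 and CDC5, the polo kinase, by 1.08 ± 0.20. Fewer members were called against the other deletions. Of the 14 genes 2 were called lower than in dot1 and 2 lower than in swi4, with median differences of −0.23 and −0.02. The falls numbered 2 and 0 without ard1 replicates 1 and 2, and 5 without wt replicate 2, the array with the higher median. For the 4 genes named the adjusted p without an ard1 array was between 0.0545 and 0.111, and CLB2 was also lost without wt replicate 2 (0.0562).

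In the lists for G1 and S phase the counts were smaller. Of 20 SBF targets 4 fell, among them the wall protein genes SVS1 (−1.11 ± 0.14) and CWP1 (−1.04 ± 0.09) and the G1 cyclin CLN2 (−0.72 ± 0.17). SVS1 read 11.66 and 11.36 in ard1, 9.85 and 9.69 in swi4, which lacks a subunit of SBF, and 12.53 and 12.72 in wt. Of 21 MBF targets 4 fell, led by RNR1, the large subunit of ribonucleotide reductase (−1.02 ± 0.19). Of 9 core and variant histone genes 1 fell, HTZ1 by 0.40 ± 0.09. CLN2 and HTZ1 lost their calls without either ard1 array or wt replicate 2 (adjusted p between 0.0541 and 0.177), and RNR1 without ard1 replicate 2 (0.108). Without the ard1 arrays 1 and 2, the falls were 2 and 2 of the SBF targets and 2 and 0 of the MBF targets. Without wt replicate 2, 2 MBF targets fell and 1 SBF target rose. The histone falls numbered 2 without wt replicate 1, 0 after median centring and 4 with an intensity trend in the variance prior.

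Of 22 flocculin genes and regulators of filamentous growth 6 fell and none rose, with a median of −0.44. Beside MIT1 these included PHD1, an activator of pseudohyphal growth, which read 8.85 and 8.52 in ard1, against 9.66 and 9.65 in wt (−0.97 ± 0.19). The flocculin genes FLO10 and FLO11 fell by 1.01 ± 0.20 and 0.66 ± 0.15, and MSB2, the sensor of the pathway, by 0.52 ± 0.12. All 22 genes had a change of 0.00 or below on the scaling as deposited, on which 3197 of all 5449 genes had a negative change. In the list 5 were lower than in dot1 and 2 lower than in swi4. The falls numbered 2 and 1 without ard1 replicates 1 and 2. PHD1, FLO10, FLO11 and MSB2 lost their calls there (adjusted p between 0.0519 and 0.174), FLO10 and FLO11 also without wt replicate 1 (0.0535 and 0.0746) and MSB2 without wt replicate 2 (0.0753).

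Sensors and signalling genes of the cell wall integrity pathway fell in 6 of 18 cases and rose in none. After WSC4 these were ROM1, an exchange factor for Rho1, at 7.69 and 7.72 in ard1 against 8.56 and 8.73 in wt (−0.94 ± 0.11), the sensor genes WSC3 (−0.77 ± 0.15), MTL1 (−0.55 ± 0.12) and SLG1 (−0.47 ± 0.12), and LRG1 (−0.70 ± 0.13), which inactivates Rho1. ROM1 was also called lower than in dot1 (−1.12) and in swi4 (−1.19). Of 38 genes for wall proteins and chitin synthesis 12 fell and 3 rose. The chitin synthase genes CHS2 and CHS3 fell by 0.67 ± 0.12 and 0.65 ± 0.09, while HPF1, NCA3, of the SUN family, and SPI1 rose. NCA3 stood at 10.97 and 10.94 in ard1, against 9.26 and 9.08 in dot1 cells, 12.06 and 12.49 in swi4 cells and 10.06 and 10.25 in wt (0.80 ± 0.16 against wt). Without ard1 replicates 1 and 2 the falls were 2 and 2 of the sensors and 5 and 2 of the wall genes. After median centring 8 wall genes fell and 2 rose. WSC3, MTL1, SLG1, LRG1, NCA3 and SPI1 lost their calls without either ard1 array (0.0609 to 0.197) and CHS2 and CHS3 without replicate 2 (0.0988 and 0.0634). MTL1, SLG1 and SPI1 were also lost without wt replicate 2 (0.0596 to 0.101) and NCA3 without wt replicate 1 (0.0514).

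The title of the series concerns silencing at heterochromatin and at the cassettes HML and HMR. Of the 3 measured genes of the silent cassettes none rose in ard1, HMRA1 at a change of 0.00, HMLALPHA1 at −0.34 and HMRA2 at −0.55 ± 0.12. The probe sets of HMLALPHA1 and HMRA2 also match the active mating-type locus, so they cannot show the silent copy alone. HMRA2 lost its call without any 1 array (adjusted p between 0.055 and 0.159). Of 18 silencing factor genes 3 fell and none rose. YKU70, a subunit of the Ku end-binding complex, fell by 0.48 ± 0.13, RIF2, a telomere-binding partner of Rap1, by 0.69 ± 0.17 and HST3, a histone deacetylase, by 0.67 ± 0.17. The genes of the silencing complex gave −0.09 for SIR2, −0.21 for SIR3 and 0.27 for SIR4 without passing the test. None of the 3 called genes held without either ard1 array (0.0648 to 0.231), and all 3 were also lost without wt replicate 2 (0.0673 to 0.128), RIF2 without wt replicate 1 as well (0.0801). Without wt replicate 2, 1 silencing factor gene was called higher.

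Genes at the chromosome ends moved in both directions. Of 191 outermost genes, which carry the 8 outermost systematic numbers of each arm, of 32 arms, 19 rose and 35 fell, with a median of −0.16. YFR057W, the last open reading frame of its arm, read 5.20 and 4.92 in ard1, against 4.20 and 4.17 in dot1 cells, 4.04 and 4.11 in swi4 cells and 4.04 and 4.12 in wt. It was 1.97-fold higher than in wt (0.98 ± 0.11, adjusted p = 0.00387) and called higher than in dot1 (0.88) and swi4 (0.99), and the call against wt held without any 1 array. The lowest mean of any gene was 4.02, and close to that floor of the measured range a fold can be understated. YFR057W was singled out after its values had been seen. At the right end of another arm the 3 arsenic resistance genes fell together, ARR1, the activator, by 0.72, ARR2, the arsenate reductase, by 1.20 and ARR3, the exporter, by 0.76. The fluoride exporter genes FEX1 and FEX2 fell by 0.92 and 1.04, and their sequences are near-identical, so their signals may be shared. These 5 calls held without any 1 array. Without ard1 replicates 1 and 2 the rises of these outermost genes numbered 4 and 5 and the falls 11 and 7. Without wt replicate 1 the falls numbered 23. After median centring 22 rose and 24 fell.

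The COS family, whose members lie near telomeres and act in the sorting of membrane proteins, was divided. COS12 read 10.43 and 10.33 in ard1, against 8.54 and 7.96 in wt, and was 4.38-fold higher (2.13 ± 0.19). COS8 rose by 0.65 ± 0.16, while COS9 and COS10 fell by 0.61 ± 0.14 and 0.81 ± 0.16. COS111, which shares the name but does not belong to the family, fell by 0.46 ± 0.10. The swi4 arrays of COS12, at 10.19 and 10.11, were not called different from ard1. Of 12 seripauperin genes 5 fell and none rose, with PAU7 at −1.36 ± 0.25, but 4 of these 5 are on probe sets shared with other members of the family. TIR1, a wall mannoprotein of cold and anaerobic cells, fell by 1.26 ± 0.12, at 12.45 and 12.40 in ard1 against 13.78 and 13.59 in wt. No seripauperin was called without either ard1 array, and 3 were called after median centring, 3 without wt replicate 1 and 2 without wt replicate 2. COS8, COS9, COS10 and COS111 were lost without either ard1 array (adjusted p between 0.0914 and 0.177), COS8 and COS10 also without wt replicate 2 (0.0989 and 0.0522) and COS9 and COS111 without wt replicate 1 (0.0655 and 0.052). PAU7 was lost without either ard1 array (0.054 and 0.108).

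Many lipid synthesis genes were lower in ard1 than in wt. Of 46 genes of the ergosterol, phospholipid and fatty acid lists 18 fell and none rose, with a median of −0.31. In sterol synthesis, ERG13 and HMG1, which make mevalonate, fell by 0.51 ± 0.09 and 0.70 ± 0.09, and ERG7, which closes the sterol rings, by 0.71 ± 0.12. Among phospholipid genes PSD1, the mitochondrial phosphatidylserine decarboxylase, read 10.74 and 10.56 in ard1, against 11.69 and 11.60 in wt (−0.99 ± 0.10). The inositol permease gene ITR1 read 12.75 and 12.64 in ard1, against 13.45 and 13.70 in wt (−0.88 ± 0.12). ELO1, which elongates fatty acids, fell by 0.87 ± 0.09 and was also called lower than in dot1 (−0.61) and in swi4 (−0.72). FAS1 and FAS2, the 2 subunits of fatty acid synthase, fell by 0.49 ± 0.08 and 0.66 ± 0.09. Over the 46 genes 7 were called lower than in dot1 and 3 lower than in swi4, with median differences of −0.08 and −0.10. Against wt 5 fell without ard1 replicate 1 and 2 without replicate 2. ERG13, ERG7 and FAS1 lost their calls without either ard1 array (adjusted p between 0.0545 and 0.108) and HMG1, ITR1 and FAS2 without replicate 2 (0.0524 to 0.053).

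Many trehalose and glycogen genes were lower in ard1 than in each of the 3 other strains. Of 20 genes 9 fell against wt and none rose, with a median of −0.51, and 17 were called lower than in dot1 and 14 lower than in swi4, at a median difference of −0.83 from either. GSY1, a glycogen synthase, read 11.14 and 11.67 in ard1, against 12.94 and 12.78 in dot1 cells, 12.61 and 12.56 in swi4 cells and 12.49 and 12.51 in wt (−1.10 ± 0.17 against wt). TSL1, a subunit of trehalose synthase, read 12.46 and 12.67 in ard1, against 13.56 and 13.55 in wt, and its dot1 and swi4 arrays lay between 13.37 and 13.50 (−0.99 ± 0.10). ATH1, the acid trehalase that breaks the sugar down, fell as well (−1.19 ± 0.11). Without ard1 replicates 1 and 2 the falls against wt numbered 3 and 4. Other stress genes gave 2 rises and 1 fall among 22 against wt, at a median of −0.23, while 11 were called lower than in dot1 and 14 lower than in swi4. CTT1, the cytosolic catalase, was −0.28 against wt without passing, and was called lower than in dot1 (−0.87) and in swi4 (−1.36). Without either ard1 array none of the 22 was called in either direction. Without wt replicate 2, 1 was higher and 3 lower, and without wt replicate 1 none was lower.

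Some genes of the respiratory chain and the ATP synthase were lower as well, with larger medians against dot1 and swi4 than against wt, a difference that was not tested. Of 36 nuclear genes 12 fell against wt, with a median of −0.25, while 28 were called lower than in dot1 and 26 lower than in swi4, at medians of −0.62 and −0.57. NDI1, the internal NADH dehydrogenase, read 10.17 and 10.37 in ard1, against 11.81 and 11.84 in dot1 cells, 11.61 and 11.48 in swi4 cells and 11.30 and 11.09 in wt. Its change was −0.92 ± 0.12 against wt. In the cytochrome bc1 complex QCR10 fell by 0.97 ± 0.15, CYT1 by 0.82 ± 0.12 and COR1 by 0.72 ± 0.09. In cytochrome c oxidase COX8 fell by 0.77 ± 0.13, and among the ATP synthase genes none was called against wt. From the list of retrograde and citric acid cycle genes, the succinate dehydrogenase subunits SDH1 and SDH2 fell by 0.86 ± 0.15 and 0.64 ± 0.11. Without ard1 replicates 1 and 2 the falls of the 36 numbered 4 and 2. QCR10 and COR1 lost their calls without ard1 replicate 2 (adjusted p = 0.0717 and 0.0511), CYT1 without replicate 1 (0.0645) and COX8, SDH1 and SDH2 without either (0.0531 to 0.0941).

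Of the 23 genes of the retrograde and citric acid cycle list 2 rose and 3 fell, with a median of 0.00. The 2 that rose were the retrograde targets CIT2 and DLD3. Such targets are known to rise when mitochondria are impaired, which was not tested here. CIT2, the peroxisomal citrate synthase, read 12.45 and 12.51 in ard1, against 11.04 and 10.80 in dot1 cells, 10.91 and 10.91 in swi4 cells and 11.36 and 10.83 in wt. It was 2.61-fold higher than in wt (1.39 ± 0.18) and called higher than in dot1 (1.56) and swi4 (1.57). DLD3, a D-lactate dehydrogenase, rose by 1.10 ± 0.15 and was 1.17 above dot1 and 0.86 above swi4. Its call against wt was lost without ard1 replicate 2 (adjusted p = 0.0561), and none of the 3 falls was called without either ard1 array.

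Mitochondrial ribosomal protein genes of the large subunit had small positive changes. Of 34 genes 33 had a positive change against wt, as had 2252 of all 5449 genes. Of the 34, 9 were called higher and none lower, with a median of 0.37. Of the same genes 12 were called higher than in dot1 and 27 higher than in swi4, with medians of 0.48 and 0.59. MRPL13 read 10.93 and 11.10 in ard1, against 10.21 and 10.52 in wt (0.65 ± 0.12), and MRPL6 10.74 and 10.84 in ard1, against 10.17 and 10.12 in wt (0.64 ± 0.09). Against wt 21 were called without wt replicate 2 and 4 without wt replicate 1. The count was 1 and 0 without ard1 replicates 1 and 2 and 20 after median centring. MRPL13 lost its call without either ard1 array (0.0654 and 0.117) and MRPL6 without replicate 2 (0.0596).

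**Figure D4:**
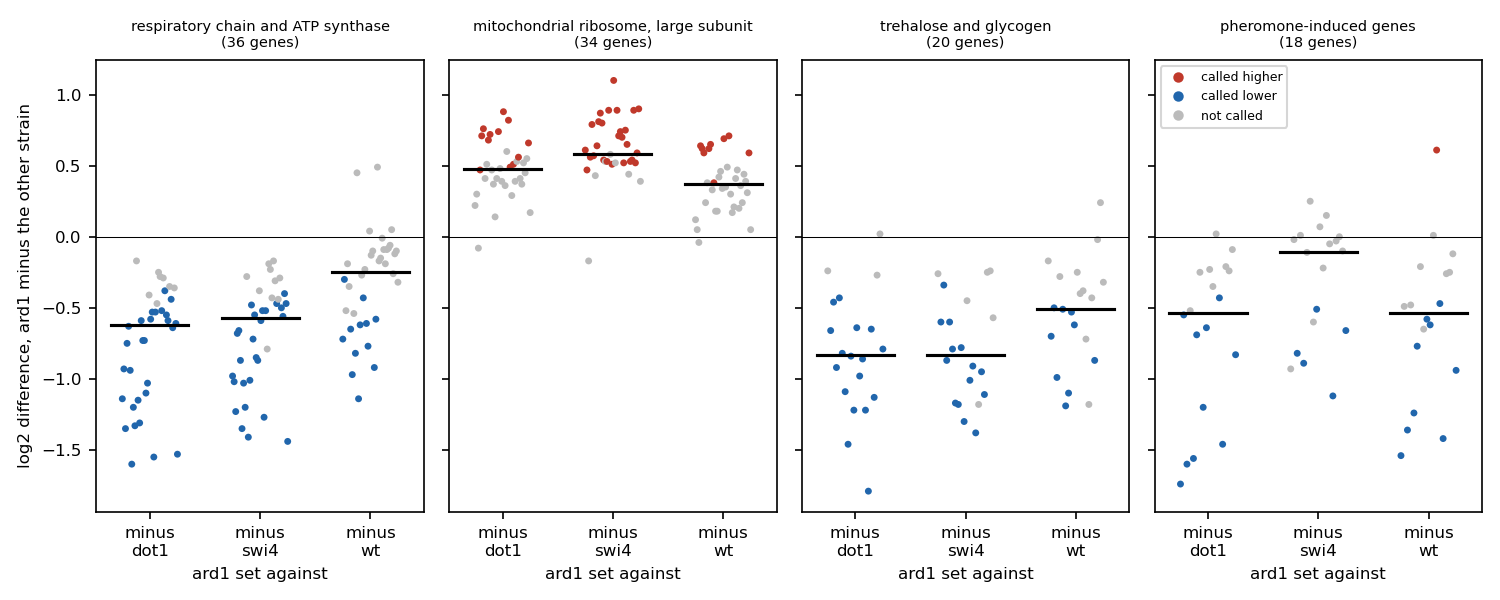
Log2 difference of ard1 from dot1, swi4 and wt (vertical axis) for the members of 4 gene lists, 1 point per gene, with the median as a black bar. Red points were called higher in ard1, blue points lower and grey points neither. Respiratory chain and storage carbohydrate genes lie lower against dot1 and swi4 than against wt, and pheromone-induced genes lie lower against dot1 and wt than against swi4, in comparisons that share the ard1 arrays. The differences between the comparisons within a panel were not tested.

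Of 22 purine genes 6 rose and 5 fell. In the pathway to inosine monophosphate ADE4, which catalyses its first step, rose by 0.62 ± 0.12, ADE8 by 0.75 ± 0.13 and ADE1 by 0.87 ± 0.13, at 12.81 and 13.03 in ard1 against 11.92 and 12.18 in wt. IMD3, of guanine nucleotide synthesis, fell by 0.59 ± 0.08 and AAH1, the adenine deaminase, by 0.92 ± 0.13. Among 13 pyrimidine genes 2 rose and 3 fell. FUI1, the uridine permease, read 11.90 and 11.73 in ard1, against 10.66 and 10.19 in wt (1.39 ± 0.17), while URH1, which splits uridine, fell by 0.78 ± 0.09 and FUR1, which salvages uracil, by 0.93 ± 0.17. The purine rises numbered 1 and 0 without ard1 replicates 1 and 2, and the falls 3 and 2. The pyrimidine rises were 1 and the falls 1 without either ard1 array. ADE4, ADE8, AAH1 and FUR1 lost their calls without either ard1 array (adjusted p between 0.051 and 0.115) and ADE1 and IMD3 without replicate 2 (0.0591 and 0.0604).

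Among vitamin genes, 6 of 17 for thiamine and vitamin B6 fell and 2 rose. THI7, the thiamine permease, read 8.81 and 8.46 in ard1, against 10.02 and 10.10 in wt (−1.42 ± 0.13), and PHO3, the phosphatase that frees thiamine outside the cell, fell by 1.13 ± 0.13. Both were called lower than in dot1 (−0.99 and −0.82) and in swi4 (−0.74 and −1.83). SNO1, of vitamin B6 synthesis, rose by 1.12 ± 0.17. In biotin synthesis and uptake 4 of 6 fell, with BIO2, the biotin synthase, at 8.66 and 8.80 in ard1 against 9.60 and 10.17 in wt (−1.16 ± 0.18). None of the 6 was called lower than in dot1, and 2 were called lower than in swi4. Without either ard1 array no biotin gene was called, BIO2 having an adjusted p of 0.0668 and 0.0579, and 2 fell after median centring and 2 without wt replicate 1. The thiamine rises numbered 1 without either ard1 array or wt replicate 2, and the falls 2 without ard1 replicate 2.

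Genes of the translation machinery itself were nearly all uncalled. Of 127 cytosolic ribosomal protein genes 4 rose and none fell, with a median of 0.07. RPL22B read 11.33 and 11.56 in ard1, against 10.18 and 10.10 in wt (1.30 ± 0.15), and RPS9A read 10.23 and 10.45 in ard1, against 9.16 and 9.06 in wt (1.23 ± 0.11). Each has a near-identical or closely related copy elsewhere in the genome, and both were also called higher than in dot1 (0.66 and 1.01) and in swi4 (0.67 and 0.74). The other 2 were RPS28B (0.77 ± 0.18) and RPL15B (0.44 ± 0.11). Of 34 translation factor genes, 19 aminoacyl-tRNA synthetase genes and 21 genes of RNA polymerases I and III limma called none against wt, with 1 in each list at an unadjusted p under 0.05. Of 60 nucleolar ribosome biogenesis genes 2 fell, DBP2 by 0.76 ± 0.15 and NSR1 by 0.42 ± 0.11, at a median of −0.06, while 13 were called higher than in dot1 and 8 higher than in swi4, at medians of 0.67 and 0.66. The ribosomal protein rises numbered 2 without either ard1 array, 9 after median centring, 8 after quantile normalization, 7 without the dimmest 25% of genes and 14 with an intensity trend in the variance prior. Without wt replicate 1, 1 translation factor gene and 2 polymerase genes were lower, and without wt replicate 2, 2 ribosome biogenesis genes were higher. RPS28B, RPL15B and DBP2 were lost without either ard1 array (adjusted p between 0.0941 and 0.198) and NSR1 without any 1 array (0.056 to 0.208).

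**Figure D5:**
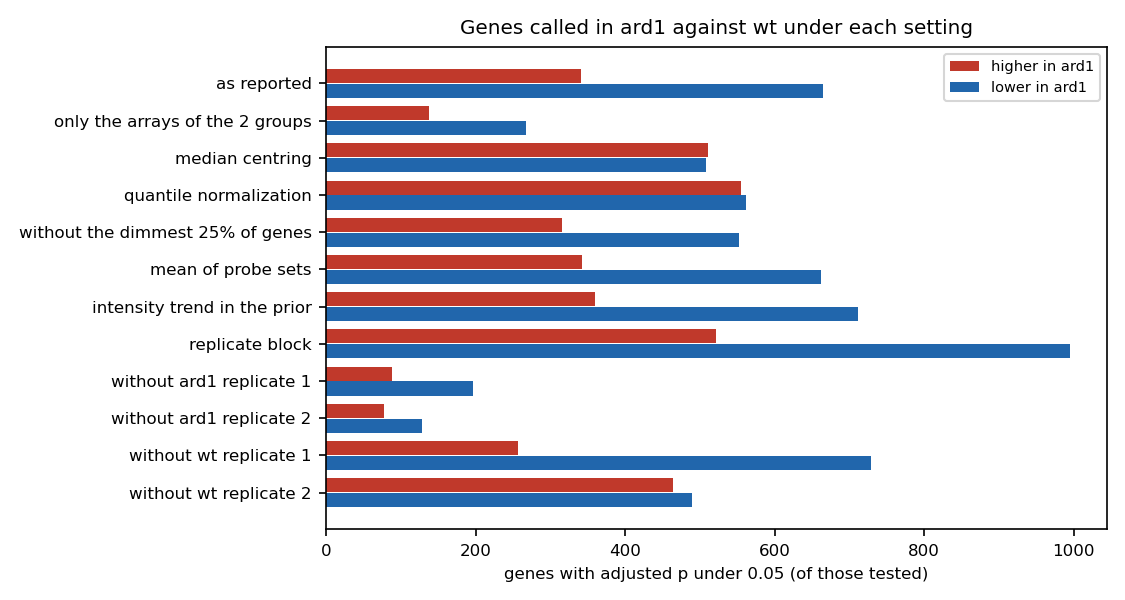
Number of genes called in ard1 against wt (horizontal axis) under the settings as reported and under 11 others, with genes higher in ard1 in red and genes lower in blue. The counts run from 77 to 555 higher and from 128 to 995 lower, and the lowest are those with 1 ard1 array left out.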

How the data were processed

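Transcript levels came from 1-colour Affymetrix yeast arrays, each hybridised with biotin-labelled cRNA made from 1 ug of total RNA, per the labels' protocols. The deposited table gives each probe set's intensity on a linear scale. The submitters' processing notes name RMA, whose version is not given in the sources used here. RMA as usually run corrects background, equalises the arrays by quantile normalization and summarises probes. The deposited arrays were not equal in median, at 712.6 on wt replicate 2 and 623.3 to 643.8 on the others, and the labels give no reason. Log2 was taken before every test, as the values were on the linear scale although log2 values had been assumed in planning. Signal over background cannot be read from such values, and the number of arrays limits the precision.

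Of 5814 probe sets, 98 were controls or reporters and 218 had no gene name. Names came from the platform annotation, with 12 symbols updated from a gene table of the R64 assembly. No sequences or coordinates were used here. Each of the 47 genes with several probe sets was represented by the brightest, and 117 genes are on probe sets shared with other transcripts and are uncertain.

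All 8 arrays and 4 groups were fitted with limma 3.58.1 in R 4.3.3 (lmFit, eBayes; 4 residual and 2.73 prior degrees of freedom). A gene was called, and is said to have risen or fallen, where its two-sided p, adjusted by Benjamini and Hochberg's method across the 5449 genes of a comparison, was under 0.05. The smallest exact permutation p for 2 against 2 arrays is 0.333, so no gene could pass by permutation. On simulated data for ard1 against wt over 5449 genes, the fit recovered 79% of genes changed by 1 on the log2 scale. It recovered 100% of those changed by 2, with 4.79% false among the called. The simulated noise was independent between arrays, of equal size in all groups for a gene, and without a shift of any array. The deposited arrays differ from that in each respect, so these rates need not hold for them. Nothing in the labels says that replicates came from separate clones, so p-values measure only the spread between these arrays.

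The comparison and its 63 gene lists, with 1184 of 1239 distinct members measured, were chosen with earlier results of these data known. The result of 1 list is not reported here. Named genes are ARD1, its neighbours and the other acetyltransferases, the 15 largest rises and falls with no overlap between arrays, and up to 6 called members per list and direction, with uncalled members shown for pathway order. YFR057W, the ARR and FEX genes and CTT1 were added after their values were seen. Alternatives are given in the closing section.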

Additional observations from a re-analysis of the deposited data

How the results depend on the processing

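Among the fits without 1 array, counts were lowest without an ard1 array against wt and dot1, and without swi4 replicate 1 against swi4. Leaving out 1 array at a time gave 77 to 464 genes higher and 128 to 729 lower in ard1 than wt, 21 to 163 and 63 to 355 against dot1, and 24 to 56 and 32 to 140 against swi4. As reported these were 341 and 665, 309 and 460, and 338 and 494. With only the arrays of the 2 groups compared, the counts were 138 and 267 against wt and 1210 and 1017 against swi4. Quantile normalization gave 555 higher against wt and median centring 496 higher against dot1. The replicate numbers do not say that arrays share a day or batch. With them as a replicate block, 522 genes were higher than in wt, 773 higher and 809 lower than in dot1, and 745 and 802 than in swi4, and 995 were lower than in wt; same-numbered deviations correlated between 0.351 and 0.754 over the 6 pairs of groups. Where no gene is called as reported, the block gave 2 of 7 a-specific and 2 of 21 RNA polymerase genes lower and 1 of 19 aminoacyl-tRNA synthetase genes higher. Leaving out the dimmest 25% of genes, averaging probe sets or adding an intensity trend to the prior kept every count over all genes of the 3 comparisons within 1.5 times, but not every count of a gene list. Of the 279 genes named by rule, 270 were called and 76 of them held in every fit without 1 array. Directions turned for 5 genes that are uncalled as reported. Without 1 array at a time MAK3 ran from −0.38 (without wt replicate 1, where it was called) to 0.04, MDM20 from −0.09 to 0.36, NAT5 from −0.10 to 0.19, with −0.01 without ard1 replicate 2, and VPS29 from −0.19 to 0.22, with −0.09 without ard1 replicate 2. NAT4 was 0.04 after quantile normalization. Fewer arrays leave fewer degrees of freedom, equally so in every fit without 1 array. The SD of the difference between replicates was 0.172 in ard1, 0.325 in wt, 0.298 in dot1 and 0.144 in swi4. Why the counts differed between the fits without 1 array was not tested.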

Other observations

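Several further gene groups held single strong changes rather than a common direction. Among 22 genes of oxidative and drug response 2 rose and 3 fell, beside 6.26% higher and 12.2% lower among all genes. ATR1, an exporter of the drug aminotriazole, read 11.36 and 11.18 in ard1, against 10.43 and 10.42 in wt (0.85 ± 0.10), and was called higher than in dot1 (1.08) and in swi4 (1.06). YOR1, a multidrug transporter, read 10.23 and 10.44 in ard1, against 11.45 and 11.83 in wt (−1.31 ± 0.14), a difference that was −0.34 from dot1 and −0.53 from swi4 without passing the test. The calls of ATR1 and YOR1 against wt held without any 1 array, and 1 rise and 1 fall of this list were called without either ard1 array.

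Of 16 phosphate genes 1 rose and 3 fell, PHM8, a nucleotide phosphatase, by 0.71 ± 0.09 and PHO5, the secreted acid phosphatase, by 0.65 ± 0.13, while PHO89, a phosphate transporter, rose by 0.57 ± 0.12. PHO89 and PHO5 lost their calls without either ard1 array, and PHO89 also without wt replicate 1. Of 22 hexose transporter and glucose sensing genes 2 fell, RGT1, the repressor of hexose transporter genes, at 9.54 and 9.46 in ard1 against 10.35 and 10.17 in wt (−0.76 ± 0.10), and SNF3, a glucose sensor, by 0.48 ± 0.09. Both were called lower than in dot1 (−0.62 and −0.73) and in swi4 (−0.60 and −0.71), and both lost their calls against wt without ard1 replicate 2. Of 21 glycolysis and fermentation genes 1 fell, GPD1, of glycerol synthesis, by 0.53 ± 0.10. GPD1 lost its call without either ard1 array (adjusted p = 0.0876 and 0.115) and after median centring.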
